A study of Mus musculus with 7 samples.

Results

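The transcripts encoded by mouse mitochondrial DNA were followed in supporting cells of the cochlea after treatment with TSA (trichostatin A), GSK-343 or the solvent DMSO. They were chosen by name. The version suffix of each gene identifier was dropped, identifiers were matched to mouse symbols, and every gene whose symbol starts with mt- was taken, which gave 37 of the 48709 genes in the tables. These are 13 mRNAs, 2 rRNAs and 22 tRNAs, and together they lie between positions 1 and 15422 of chromosome M in the GRCm38 build, as annotated in GENCODE M21. On the plus strand lie 12 of the mRNAs, both rRNAs and 14 tRNAs, and the minus strand carries the mRNA mt-Nd6 and the other 8 tRNAs.

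Mitochondrial DNA is transcribed from both strands into long precursor RNAs, and the tRNAs that stand between most of the other genes are cut out of them, which frees the mRNAs and rRNAs. The mRNAs encode core subunits of the respiratory chain and of the ATP synthase, the rRNAs are the scaffold of the mitochondrial ribosome, and the tRNAs decode the messages inside the organelle. In humans, changes in the small mitochondrial rRNA and in mitochondrial tRNAs are known causes of hearing loss.

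Cochleae of mice at postnatal day 1 were kept in culture for 48 h with 200 nM TSA (an inhibitor of histone deacetylases; 2 libraries), with 10 µM GSK-343 (an inhibitor of the histone methyltransferase EZH2; 3 libraries) or with DMSO alone (2 libraries). Supporting cells, the non-sensory cells around the hair cells, were then sorted by their GFP signal, and libraries were made from their RNA with a kit for small inputs. All 3 groups shared the culture medium, the sort and the kit, and the labels give neither the mouse strain nor the transgene behind the GFP signal. Nothing in them says that replicates are different animals or cultures, and each p-value is therefore about the spread among these libraries alone, which may be technical.

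The libraries held 2724381 and 2963228 expected counts after TSA, 3398893 to 4248336 after GSK-343, and 5974230 and 5124247 in DMSO. The DMSO libraries were quantified in another read layout. The effective length, which is the number of positions at which a read fragment can start on a transcript, fell short of the transcript length by a median of 210.24 and 208.21 bases after TSA and 209.96 to 212.69 bases after GSK-343, against 49 bases in both DMSO libraries. For TSA against GSK-343 the layout is therefore shared, and in every comparison with DMSO treatment and layout cannot be told apart. All 12 supporting cell markers were above 0 in every library, and their summed level was 7883 and 10411 TPM after TSA, 19581 to 31378 TPM after GSK-343, and 3242 and 4663 TPM in DMSO. The sum of 5 neuronal markers was 369 and 449 TPM after TSA, 27.5 to 58.9 TPM after GSK-343, and 19.9 and 49.8 TPM in DMSO, and that of 8 hair cell markers was 434 and 1636 TPM after TSA, 262 to 543 TPM after GSK-343, and 68.4 and 108 TPM in DMSO. Markers of Schwann cells, mesenchyme, blood and endothelium, leukocytes and melanocytes summed to at most 55.0 TPM each in any library. The part of these marker differences in the mitochondrial values was not tested.

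The mitochondrial rRNAs took a large and variable part of each library. They held 10.4% and 18.1% of the expected counts after TSA, 3.47%, 7.38% and 8.60% after GSK-343, and 23.6% and 20.8% in DMSO. The TSA values were all above the GSK-343 values and all below the DMSO values. In TPM the last of these gaps closed, with 14.6% and 24.0% for TSA and 28.6% and 23.4% for DMSO. The 13 mRNAs were a far smaller class, at 0.989% and 1.05% of counts after TSA, 0.843%, 0.919% and 0.835% after GSK-343, and 3.15% and 4.59% in DMSO. Again the 3 groups did not overlap, although the lowest TSA library and the highest GSK-343 library lay close together. These shares are not scaled between libraries. In the TMM-scaled CPM used below, TSA and GSK-343 overlapped for the most counted treated member of each class. These were mt-Rnr2 (78617 and 156594 against 33184 to 83897 CPM) and mt-Co1 (4461 and 6001 against 5108 to 5321 CPM). The other members are given below. The tRNAs held 0.0121% and 0.0290% of the DMSO counts and had no count in the treated libraries, where their effective length was 0. Wilson 95% intervals of these shares were at most 0.0438 percentage points to either side and cover counting error only, so the spread between replicates is far wider than the counting error. In bulk samples, fewer cells of a type and less RNA per cell cannot be told apart.

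**Figure D1:**
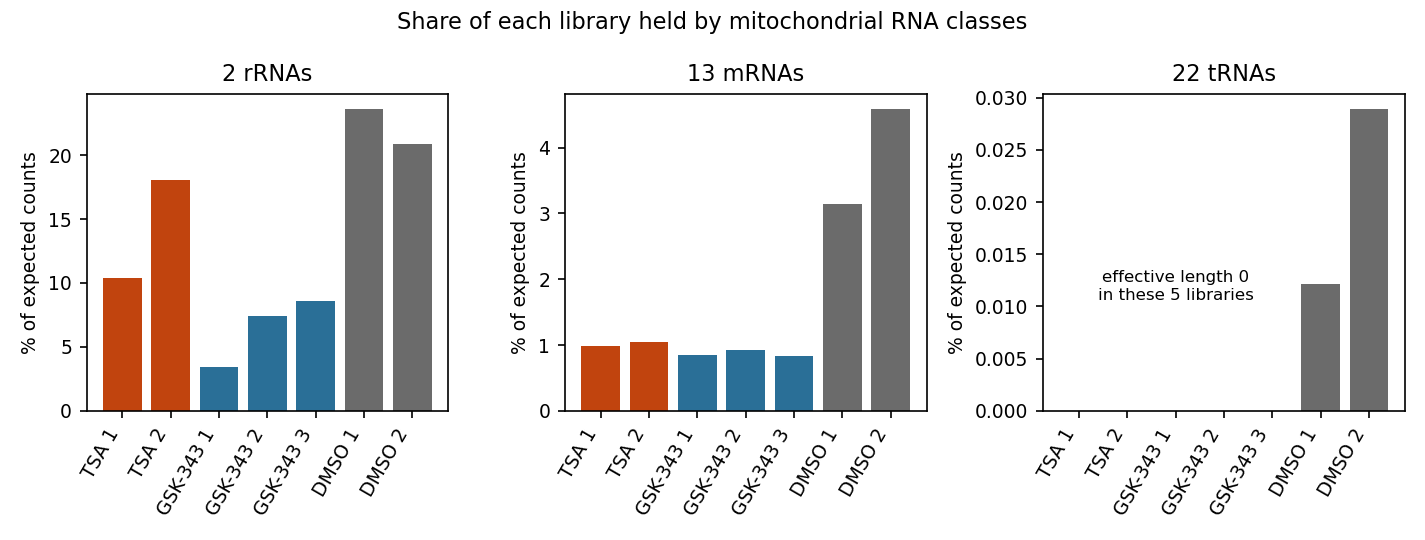
Share of all expected counts (%) held by the 2 mitochondrial rRNAs, the 13 mRNAs and the 22 tRNAs, 1 bar for each library, with a separate axis for each class. The rRNA bars of TSA (10.4% and 18.1%) stand above those of GSK-343 (up to 8.60%) and below those of DMSO, and the tRNAs have an effective length of 0 in the 5 treated libraries.

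The first question was whether the deacetylase inhibitor and the EZH2 inhibitor left the cells with different amounts of mitochondrial RNA. Of the 13 mRNAs, 1 was called higher after TSA and none lower, and neither rRNA was called, by edgeR's quasi-likelihood test at a Benjamini-Hochberg adjusted p under 0.05 over all genes tested. In the same comparison 10.7% of the 14907 genes tested were called, 5.04% higher and 5.68% lower (752 and 846 genes; 1020 and 431 with total count scaling, which moves the median of all genes by 0.20 on the log2 scale, and 834 and 173 with limma on TPM). At an unadjusted edgeR p under 0.05 stood 1 rRNA (mt-Rnr2) and 1 mRNA (mt-Atp8), beside 4163 of the 14907 genes tested. DESeq2 also called no rRNA. Levels in CPM below are scaled by the TMM method, and log2 fold changes are given with their SE.

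The rRNAs are the scaffolds of the small subunit (mt-Rnr1) and the large subunit (mt-Rnr2) of the mitochondrial ribosome. mt-Rnr2 stood at 78617 and 156594 CPM after TSA and at 33184, 67781 and 83897 CPM after GSK-343. One TSA library lay inside the GSK-343 range and the other was higher than all 3. The log2 fold change of mt-Rnr2, TSA over GSK-343, was 0.93 ± 0.42 with an unadjusted edgeR p of 0.0403 and an adjusted p of 0.157. Without TSA replicate 1 mt-Rnr2 was called (1.34, edgeR adjusted p = 0.0451) and without TSA replicate 2 it was at 0.33 (adjusted p = 0.854). mt-Rnr1 stood at 736 and 597 CPM after TSA and at 188, 834 and 589 CPM after GSK-343, so the groups overlapped (log2 fold change 0.31 ± 0.46, edgeR adjusted p = 0.707). The levels of the pair did not move together from library to library: TSA replicate 2 had the higher mt-Rnr2 and the lower mt-Rnr1 of its group.

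The called mRNA was mt-Atp8, which encodes a small subunit of the ATP synthase. Its expected counts were 60 and 126 after TSA, 20, 21 and 37 after GSK-343, and 2132 and 2897 in DMSO. Both TSA libraries were above all 3 GSK-343 libraries, and all 5 were far below DMSO. In CPM the level of mt-Atp8 was 26.9 ± 14.3 after TSA and 6.44 ± 1.85 after GSK-343 (SD, n = 2 and 3), a log2 fold change of 2.05 ± 0.40 (edgeR adjusted p = 0.00848). Leaving out TSA replicate 2 ended this call (1.36, adjusted p = 0.155). mt-Atp8 is 204 bases long, and its effective length was 16.84 and 17.35 bases after TSA and 15.90 to 16.92 bases after GSK-343, so few fragments could be assigned to it in either group. Nuclear genes of 200 to 300 bases as a class also held more of the counts after TSA (0.00335% and 0.00507%) than after GSK-343 (0.00205% to 0.00299%). The part of this shift in the mt-Atp8 value was not tested.

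mt-Atp8 also shares RNA with its neighbour. It is the first reading frame of a transcript whose second frame is mt-Atp6, another ATP synthase subunit, and their annotated bodies overlap by 43 bases. The shared stretch is shown because it belongs to both annotated genes (GRCm38, plus strand, chrM:7927-7969, bases 162 to 204 of mt-Atp8), and the whole run is shared.
mt-Atp8 end: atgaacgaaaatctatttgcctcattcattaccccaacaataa
mt-Atp6 itself stood at 88.8 and 185 CPM after TSA and at 133, 153 and 182 CPM after GSK-343 (log2 fold change -0.19 ± 0.41, edgeR adjusted p = 0.816). The groups overlapped for mt-Atp6 as deposited, but most counts of this stretch were given to a nuclear copy, as described below. With the copies added, mt-Atp6 stood at 932 and 1356 CPM after TSA and at 426, 797 and 803 CPM after GSK-343. Those groups did not overlap (log2 fold change 0.76 ± 0.34, edgeR unadjusted p = 0.0384, adjusted p = 0.152). In either count mt-Atp8 passed the threshold and mt-Atp6 did not. Whether the 2 frames differ from each other in their response was not tested.

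Among the subunits of complex I, the NADH dehydrogenase, mt-Nd1 stood at 337 and 378 CPM after TSA and 228, 264 and 332 CPM after GSK-343. These groups did not overlap, by a margin far smaller than the spread within either (log2 fold change 0.38 ± 0.29, edgeR adjusted p = 0.428). mt-Nd4l was likewise higher in both TSA libraries, at 9.52 and 9.68 CPM after TSA against 8.22, 9.49 and 6.71 CPM after GSK-343, and was not called (0.24 ± 0.33, adjusted p = 0.687). Overlapping levels were found for the other complex I subunits with counts: mt-Nd2 (-0.06 ± 0.38), mt-Nd4 (0.01 ± 0.32), mt-Nd5 (0.17 ± 0.44) and mt-Nd6 (0.49 ± 0.40), each a log2 fold change with SE and an adjusted p of at least 0.457 by edgeR. GSK-343 replicate 1 was the lowest of all 5 treated libraries for mt-Nd1, mt-Nd2, mt-Nd4, mt-Nd5 and mt-Nd6, and also for mt-Cytb and both rRNAs.

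mt-Cytb, the cytochrome b of complex III, stood at 779 and 860 CPM after TSA and at 502, 746 and 663 CPM after GSK-343. Both TSA libraries were higher, and the gene was not called (log2 fold change 0.36 ± 0.30, edgeR adjusted p = 0.468). mt-Co1, the catalytic subunit of cytochrome c oxidase (complex IV), stood at 4461 and 6001 CPM after TSA and 5198, 5108 and 5321 CPM after GSK-343. The GSK-343 libraries lay close together and inside the TSA range (log2 fold change 0.01 ± 0.29, adjusted p = 1.00). Over the 12 mRNAs with counts in both groups the median log2 fold change was 0.09, against 0 for all genes, and 8 lay above 0 and 4 below. That count varied with the scaling. It was 11 above 0 under total count scaling and under limma on TPM, 9 under DESeq2 size factors and 8 under nuclear protein-coding scaling. It also varied with the libraries kept, with 6 above 0 without GSK-343 replicate 1 and 5 without TSA replicate 2.

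**Figure D2:**
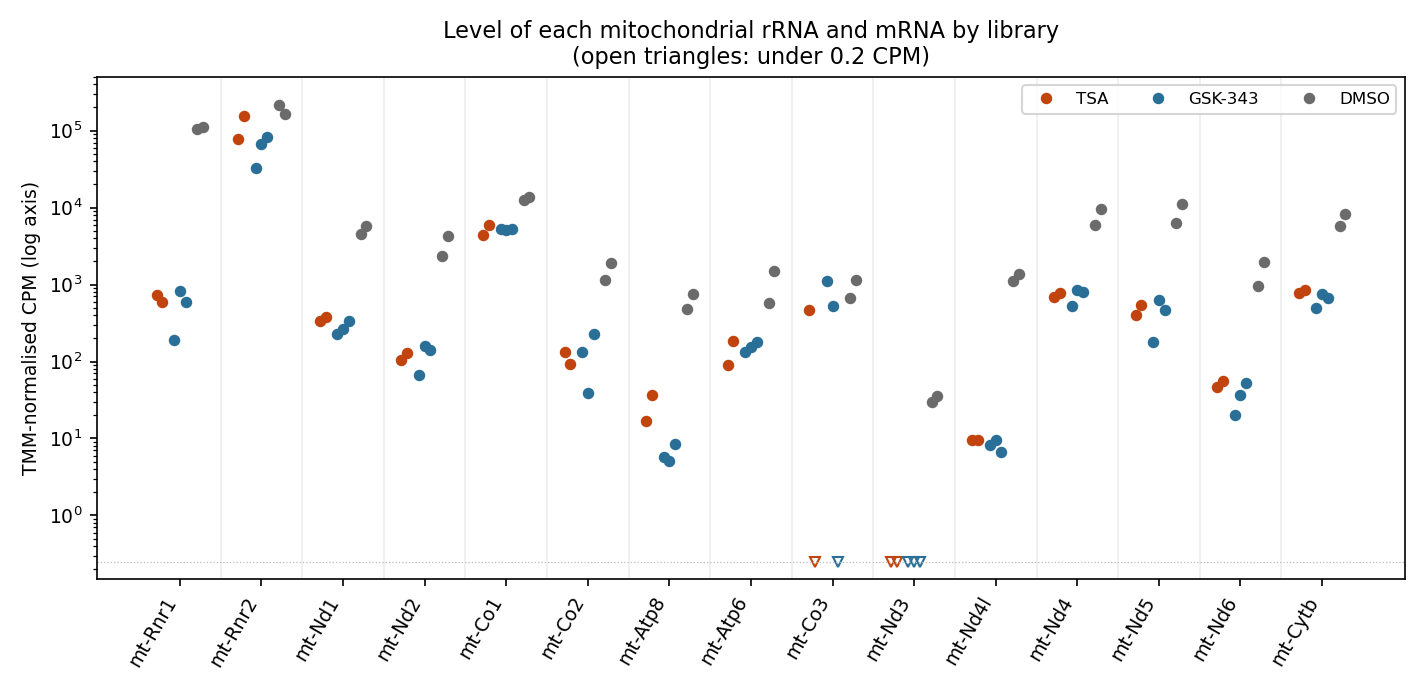
TMM-normalised CPM (log axis) of each mitochondrial rRNA and mRNA, 1 point for each library, with TSA at left, GSK-343 in the middle and DMSO right within a gene. Open triangles mark libraries under 0.2 CPM: mt-Nd3 in all 5 treated libraries and mt-Co3 in TSA replicate 2 and GSK-343 replicate 3, while mt-Co1 keeps 4461 to 6001 CPM in the treated libraries.

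Several mRNAs could not be read from the mitochondrial gene alone, because the nuclear genome carries copies of mitochondrial DNA that RSEM counts as genes of their own. A search of GENCODE M21 transcripts found 16 annotated genes that match 11 of the mitochondrial mRNA genes at 90% identity or more over at least 100 bases. Of these, 7 lie side by side on chromosome 1 within 4663 bases (chr1:24611535-24616197, minus strand, GRCm38), in the order of the mitochondrial genes from mt-Co1 to mt-Nd4. They held 99.3% to 100% of all counts given to copies in each library. The copies of mt-Co2 (Gm28661, 681 bases), mt-Atp6 (Gm10925, 678 bases) and mt-Nd4 (Gm28439, 876 bases) are identical to the mitochondrial sequence over their whole length, as are those of mt-Nd4l (Gm10222) and mt-Co3 (Gm28437), so a read from these stretches fits both places.

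mt-Co3, a core subunit of cytochrome c oxidase, shows the effect most clearly. Its copy Gm28437 has 783 bases, all identical to mt-Co3, which has 1 base more at its end. The ends are shown because that last base, in capitals, is the whole difference between the annotated sequences (GRCm38; mt-Co3 plus strand chrM:9351-9390, bases 745 to 784; Gm28437 minus strand chr1:24613189-24613227, bases 745 to 783).
mt-Co3: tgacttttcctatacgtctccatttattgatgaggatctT
Gm28437: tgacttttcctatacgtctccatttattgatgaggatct
mt-Co3 was given 1689 and 0.10 expected counts after TSA, 3912, 2159 and 0.37 after GSK-343, and 2953 and 4347 in DMSO. Its copy was given 434 and 2325 after TSA, 0.52, 368 and 3285 after GSK-343, and 4290 and 2309 in DMSO. Wherever one of the pair was near 0 the other was high. Summed over the pair the level was 595 and 682 CPM after TSA, 1109, 615 and 760 CPM after GSK-343, and 1627 and 1735 CPM in DMSO, without the gaps seen in either gene. The coefficient of variation between TSA libraries was 9.7% for the sum against 141% for mt-Co3 alone, and between GSK-343 libraries 30.7% against 102%.

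A division of counts was also seen for mt-Co2 and mt-Atp6, to different degrees. The copy of mt-Nd4 had no count in any library, and the copies of mt-Co1 held 2.10% to 11.2% of the summed counts. mt-Co2, a further subunit of cytochrome c oxidase, had 477 and 320 expected counts after TSA and 470, 160 and 974 after GSK-343. Its copy had 505 and 707 after TSA and 0, 643 and 0 after GSK-343, so that in 2 GSK-343 libraries nearly all counts were given to the mitochondrial gene. For mt-Atp6 the copy took the larger part everywhere, with 90.5% and 86.3% of the pair's counts for TSA, 68.7% to 80.9% for GSK-343, and 83.5% and 68.1% for DMSO. With the copies added, the log2 fold change of TSA over GSK-343 was 0.76 ± 0.34 for mt-Atp6 (edgeR adjusted p = 0.152), 0.64 ± 0.31 for mt-Co2 (0.190) and -0.37 ± 0.31 for mt-Co3 (0.464). None of these passed the threshold, and the values of mt-Atp6 and mt-Co2 had lain just below 0 without the copies.

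mt-Nd3, a small complex I subunit, had no count in any of the 5 treated libraries and 131 and 136 expected counts in DMSO. Its copy Gm28438 had 16 and 19 expected counts after TSA, 9, 10 and 15 after GSK-343, and 96.3 and 328 in DMSO. Every treated count of the pair was thus given to the nuclear copy. The first 60 bases of both are shown because they hold the only base that differs within the copy (T3C, counted from the first base of mt-Nd3, in capitals; position 9461 of chromosome M). The strands and positions are plus, chrM:9459-9518 for mt-Nd3 and minus, chr1:24613060-24613119 for Gm28438, in GRCm38.
mt-Nd3: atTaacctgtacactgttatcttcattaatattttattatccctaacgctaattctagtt
Gm28438: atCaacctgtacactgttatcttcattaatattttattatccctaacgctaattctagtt
The summed level of the pair was 4.48 and 5.57 CPM after TSA, 2.55, 2.43 and 3.47 CPM after GSK-343, and 51.0 and 121 CPM in DMSO. Both TSA libraries were above the 3 GSK-343 libraries, and the difference did not pass the threshold (log2 fold change 0.82 ± 0.54, edgeR adjusted p = 0.342). Which base the sequenced mice carry at that position was not analysed here.

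**Figure D3:**
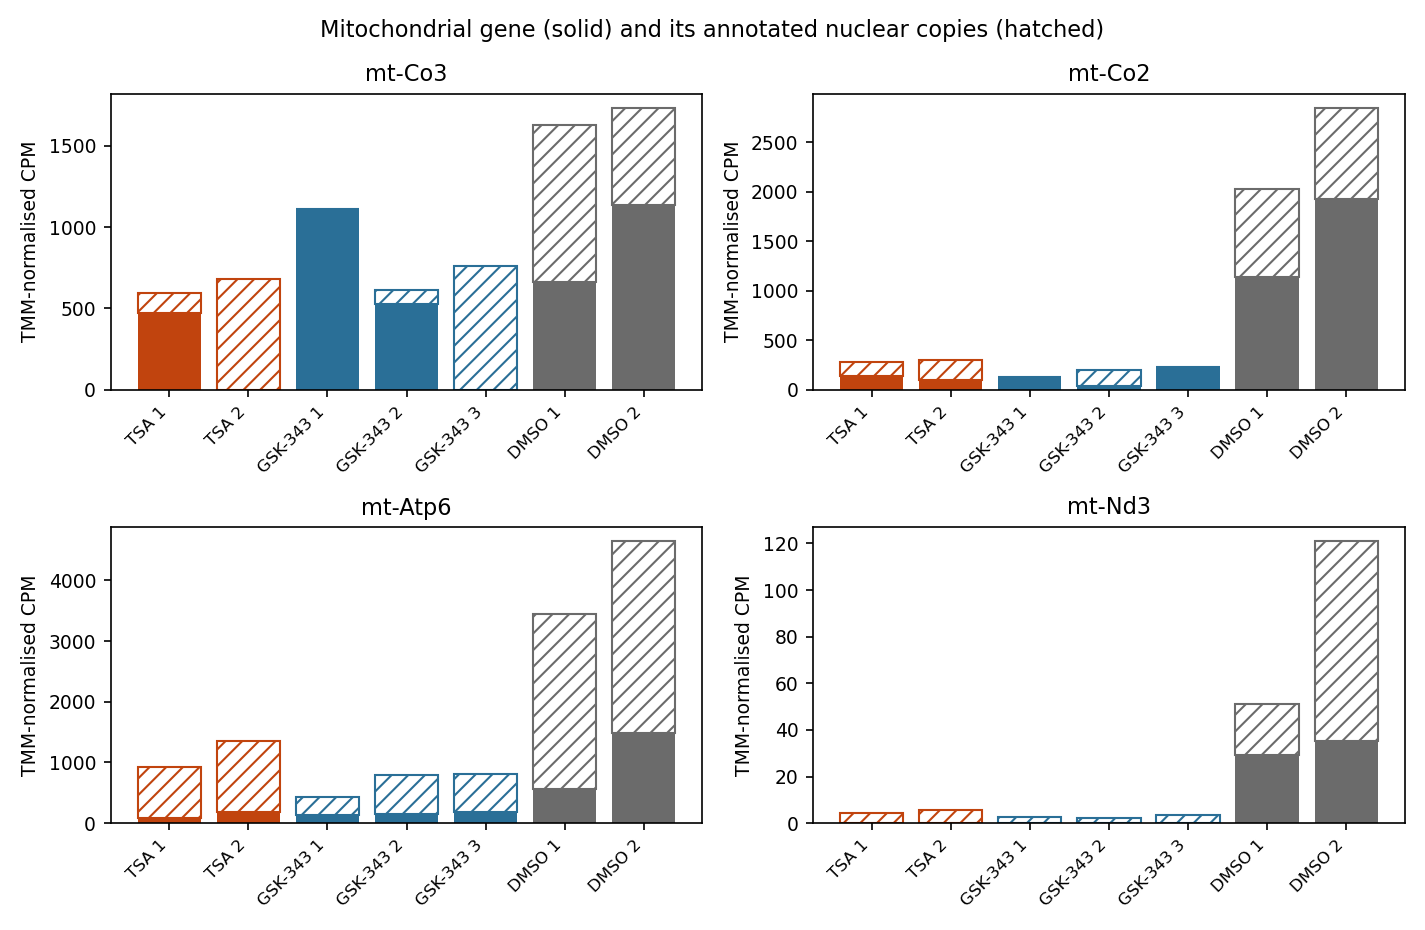
TMM-normalised CPM of mt-Co3, mt-Co2, mt-Atp6 and mt-Nd3 (solid) with their annotated nuclear copies stacked on top (hatched), 1 bar for each library. For mt-Co3 the solid part is missing in TSA replicate 2 and GSK-343 replicate 3 while the full bars of the treated libraries stay between 595 and 1109 CPM.

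**Figure D4:**
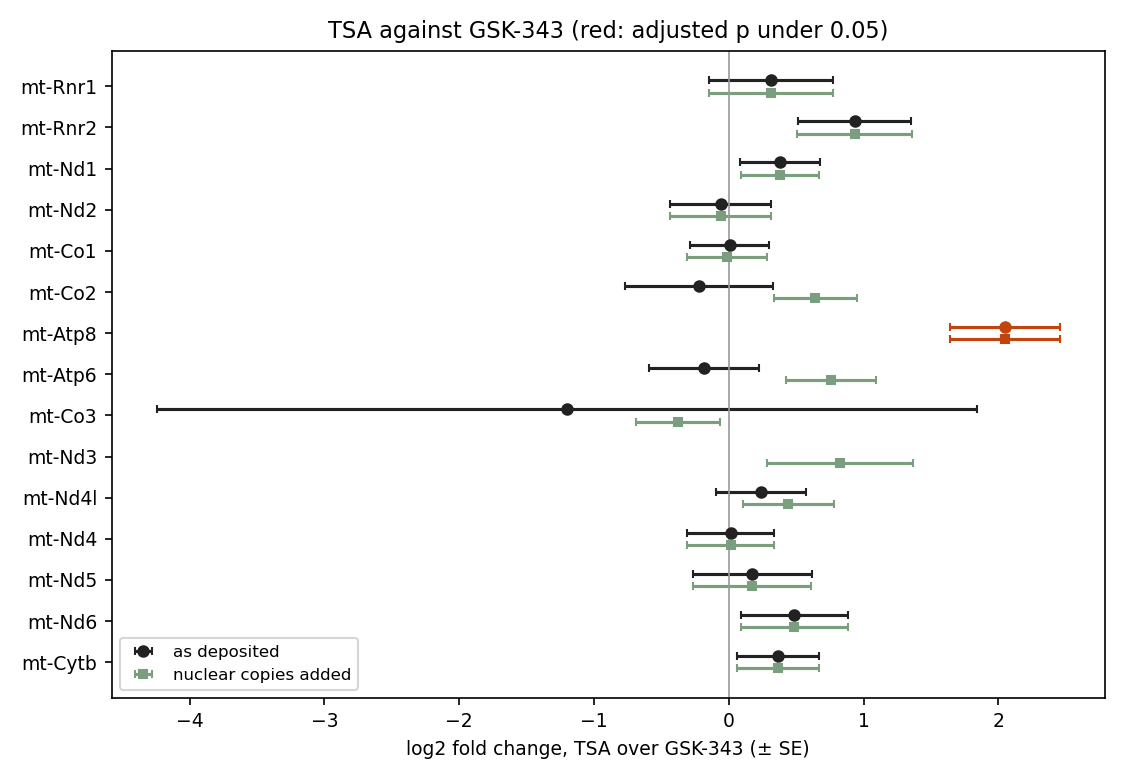
Log2 fold change of TSA over GSK-343 with its SE for each mitochondrial rRNA and mRNA, from the counts as deposited (circles) and with the nuclear copies added (squares); red marks an adjusted p under 0.05. mt-Atp8 stands apart at 2.05 in both fits, the wide bar of mt-Co3 (-1.20 ± 3.04) narrows to -0.37 ± 0.31 with the copies, and mt-Nd3 has no circle because it had no count.

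The makeup of the mRNA class was compared without any scaling between libraries, as each gene's share of the TPM summed over the 13 mRNAs. mt-Co1 made up 41.0% and 44.5% of the class after TSA, 46.3%, 47.0% and 50.5% after GSK-343, and 19.7% and 14.8% in DMSO. It was the leading mRNA in all 7 libraries, and all 5 treated values were above both DMSO values. mt-Atp8 made up 12.2% and 21.1% after TSA, 4.23%, 3.72% and 6.40% after GSK-343, and 7.31% and 7.82% in DMSO. On this measure the TSA libraries were above all others, and both DMSO libraries lay between the treated groups. TPM divides mt-Atp8 by an effective length of 15.9 to 17.35 bases in treated libraries and 155 in DMSO. Of the class's counts it held most in DMSO, with 1.13% and 1.23%. After TSA it held 0.223% and 0.407%, and after GSK-343 0.0599% to 0.104%. The TPM shares leave out the nuclear copies, and that of mt-Co3 ran from 0.000523% in TSA replicate 2 to 23.0% in GSK-343 replicate 1. mt-Nd4l, whose message overlaps mt-Nd4 by 7 bases, was lower in the treated libraries than in DMSO. It made up 1.30% and 1.05% after TSA, 1.11%, 1.29% and 0.938% after GSK-343, and 10.7% and 8.78% in DMSO. mt-Nd6, the only mRNA on the minus strand, made up 1.88% and 1.77% after TSA, 0.780%, 1.48% and 2.15% after GSK-343, and 4.83% and 6.63% in DMSO. It overlaps mt-Nd5 by 14 bases, and whether the counting used strand is not given in the sources used here, so reads of mt-Nd6 cannot be told apart from antisense reads at that place.

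The comparisons with DMSO set each inhibitor against solvent and, at the same time, 1 read layout against another. Treatment and layout cannot be told apart in any value against DMSO below. Both comparisons share the same 2 DMSO libraries. Mitochondrial mRNAs and mt-Rnr1 were lower in both treated groups, by very unequal amounts. With TSA, 12 of the 13 mRNAs and 1 of the 2 rRNAs were called lower by edgeR, and after GSK-343 12 mRNAs and both rRNAs, none higher in either. mt-Nd3 passed the filter on low counts only through DMSO, and without it 11 of 12 mRNAs were called lower in each comparison. Of all 14907 genes, 29.2% were called for TSA against DMSO (16.1% lower, 13.1% higher; 2402 and 1957 genes) and 39.6% for GSK-343 against DMSO (21.5% lower, 18.1% higher; 3208 and 2695 genes). With total count scaling these became 1307 lower and 3871 higher for TSA, with the median of all genes moved by 0.65 on the log2 scale, and 2273 and 3948 for GSK-343, with a shift of 0.42. With limma on TPM they became 2491 lower and 5039 higher for TSA and 3164 and 4122 for GSK-343. The median log2 fold change of the 12 mRNAs with counts in all groups was -3.80 for TSA and -3.88 for GSK-343, against -0.05 and -0.04 for all genes. All 12 stayed below 0 under each scaling tried.

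The rRNA pair differed most. mt-Rnr1 stood at 736 and 597 CPM after TSA, 188, 834 and 589 CPM after GSK-343, and 104661 and 111785 CPM in DMSO. The treated libraries held 0.174% to 0.771% of the DMSO mean, with log2 fold changes of -7.34 ± 0.67 for TSA (edgeR adjusted p = 9.25e-06) and -7.65 ± 0.56 for GSK-343 (adjusted p = 9.17e-07). mt-Rnr2 stood at 212563 and 166683 CPM in DMSO, so that the treated libraries kept 41.5% and 82.6% of the DMSO mean after TSA and 17.5%, 35.7% and 44.2% after GSK-343. The log2 fold change of mt-Rnr2 was -0.69 ± 0.46 for TSA (edgeR adjusted p = 0.282) and -1.62 ± 0.42 for GSK-343 (adjusted p = 0.00664). Under limma on TPM the TSA value turned to 0.50 and the GSK-343 call was lost (-0.81, adjusted p = 0.668). That call was also lost without DMSO replicate 1 (-1.39, edgeR adjusted p = 0.0563). Per length, in TPM, mt-Rnr2 was 58.0 and 143 times mt-Rnr1 after TSA, 95.6, 44.1 and 77.4 times after GSK-343, and 1.20 and 0.881 times in DMSO.

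The pair are neighbours in a single precursor, with mt-Tv, the valine tRNA, between them and mt-Tl1, a leucine tRNA, after mt-Rnr2. They are alike in base makeup, with 37.8% A and 35.8% G and C in mt-Rnr1 (955 bases) and 38.2% A and 35.4% G and C in mt-Rnr2 (1582 bases). In mt-Rnr2, 4 runs of 6 or more A were found, the longest of 7 bases, and mt-Rnr1 has none longer than 5. The most A-rich 20 bases of each, in capitals, are shown in their surroundings for comparison (GRCm38, plus strand; mt-Rnr1 chrM:705-764 and mt-Rnr2 chrM:1468-1527).
mt-Rnr1: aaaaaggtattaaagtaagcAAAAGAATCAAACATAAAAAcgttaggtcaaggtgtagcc
mt-Rnr2: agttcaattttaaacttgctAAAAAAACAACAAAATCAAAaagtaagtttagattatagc
Those windows hold 15 and 16 A. The part of A content in the unequal levels was not tested.

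Among the mRNAs as deposited, without the copies, mt-Co1 had the smallest called change. It had 12483 and 13818 CPM in DMSO and log2 fold changes of -1.33 ± 0.33 for TSA (edgeR adjusted p = 0.00829) and -1.34 ± 0.29 for GSK-343 (adjusted p = 0.00251). Per length the groups were closer still, at 8859 ± 719 TPM after TSA, 6979 ± 563 TPM after GSK-343 and 9350 ± 65.8 TPM in DMSO (SD, n = 2, 3 and 2). The call for TSA was lost under total count scaling (-0.64, adjusted p = 0.129) and under limma on TPM (-0.08, adjusted p = 0.913), and that for GSK-343 under limma on TPM (-0.42, adjusted p = 0.488). It was also lost for TSA without TSA replicate 1 (-1.08, adjusted p = 0.0624) or without DMSO replicate 2 (-1.24, adjusted p = 0.0569).

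mt-Nd4l was at the far end, with 9.52 and 9.68 CPM after TSA, 8.22, 9.49 and 6.71 CPM after GSK-343, and 1120 and 1357 CPM in DMSO. No treated library came near DMSO, and the log2 fold changes were -7.01 ± 0.42 for TSA (edgeR adjusted p = 2.54e-07) and -7.25 ± 0.35 for GSK-343 (adjusted p = 1.25e-08). mt-Atp8 changed by -4.52 ± 0.47 for TSA and -6.57 ± 0.44 for GSK-343. On TPM the mt-Atp8 difference of TSA from DMSO was -0.31 by limma and was not called (adjusted p = 0.603). These are the 2 shortest members with counts in every library, at 297 and 204 bases. The part of length in these values was not tested. mt-Nd1, with 957 bases beside 955 for mt-Rnr1, changed by -3.84 ± 0.36 for TSA and -4.22 ± 0.31 for GSK-343.

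The remaining complex I messages were called lower in both comparisons by edgeR. mt-Nd2 changed by -4.82 ± 0.48 for TSA and -4.76 ± 0.40 for GSK-343, mt-Nd4 by -3.40 ± 0.39 and -3.41 ± 0.33, mt-Nd5 by -4.19 ± 0.55 and -4.36 ± 0.47, and mt-Nd6 by -4.82 ± 0.50 and -5.30 ± 0.43, in the same order of treatments. mt-Cytb of complex III changed by -3.08 ± 0.36 for TSA and -3.44 ± 0.31 for GSK-343. For mt-Nd3 alone no fold change is given, since all treated counts of the pair stood under its nuclear copy. With its copy added, mt-Nd3 changed by -4.09 ± 0.59 for TSA and -4.91 ± 0.52 for GSK-343.

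The values of mt-Co3, mt-Atp6 and mt-Co2 depended on how the gene and its copies were counted. mt-Co3 was the only mRNA not called against DMSO, at -1.92 ± 3.31 for TSA and -0.72 ± 2.88 for GSK-343. With the copy added it was called lower in both, at -1.40 ± 0.35 for TSA (edgeR adjusted p = 0.00824) and -1.02 ± 0.30 for GSK-343 (adjusted p = 0.0152). With its own copies added mt-Co1 was at -1.43 ± 0.33 for TSA and -1.42 ± 0.29 for GSK-343. In that count mt-Co3 had the smallest called change. mt-Atp6 changed by -2.90 ± 0.48 for TSA and -2.72 ± 0.41 for GSK-343 as deposited, and by -1.82 ± 0.38 and -2.58 ± 0.34 with the copies. mt-Co2 changed by -3.75 ± 0.66 for TSA and -3.53 ± 0.56 for GSK-343 as deposited, and by -3.08 ± 0.37 and -3.72 ± 0.32 with the copies. The calls of mt-Co2 and mt-Atp6 for TSA were lost under limma on TPM (adjusted p = 0.0656 and 0.0670), and that of mt-Co2 also without TSA replicate 1 or 2 (adjusted p = 0.0603 and 0.0960 by edgeR). With the copies added all 13 mRNAs were called lower against DMSO in both comparisons, including mt-Nd3.

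**Figure D5:**
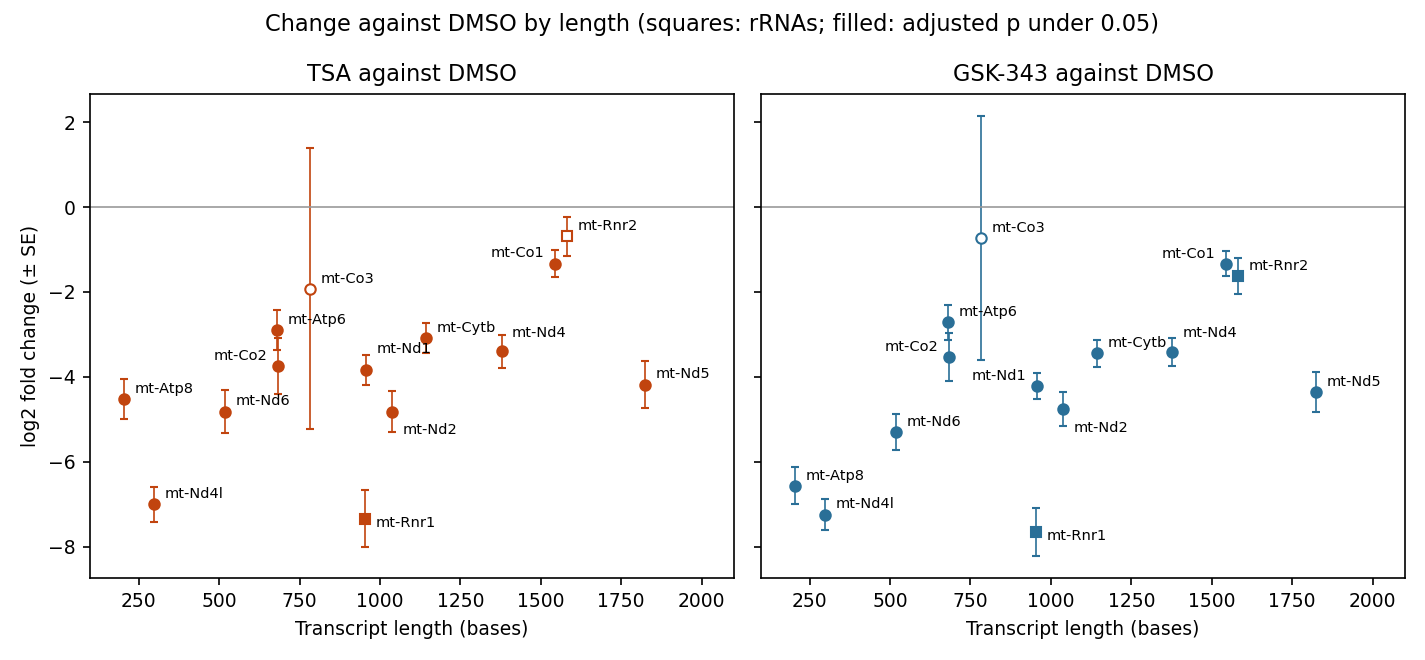
Log2 fold change against DMSO with its SE (vertical axis) by transcript length in bases (horizontal axis) for the 2 rRNAs (squares) and the 12 mRNAs with counts in every group (circles), TSA left and GSK-343 right, filled where the adjusted p is under 0.05. mt-Rnr1 (955 bases) lies at -7.34 and -7.65, far under mt-Nd1 (957 bases) at -3.84 and -4.22, and mt-Co1 and mt-Rnr2 are nearest to 0 among the long members.

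The 22 tRNAs can be described in DMSO only. They are 59 to 75 bases long, and in all 5 treated libraries their effective length in the deposited tables is 0, so a count of 0 there is no measurement. In DMSO the effective length was 10 to 26 bases, and all 22 had counts in both libraries, 725 in all in replicate 1 and 1484 in replicate 2. Nuclear genes followed the same rule: of the 2349 nuclear genes under 100 bases none had a count in a treated library, against 237 and 239 in DMSO. Of the tRNAs, 15 passed the filter on low counts, each through DMSO only, and no fold change is given. The tRNAs on either side of mt-Rnr2 are printed whole, as the least and one of the most counted members of the class (GRCm38, plus strand; mt-Tv chrM:1025-1093 and mt-Tl1 chrM:2676-2750).
mt-Tv: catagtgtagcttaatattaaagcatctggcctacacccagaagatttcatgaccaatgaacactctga
mt-Tl1: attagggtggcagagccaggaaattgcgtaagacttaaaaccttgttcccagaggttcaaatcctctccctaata
mt-Tv had 3 and 5 expected counts in DMSO, and it is the only tRNA under 10 in both libraries, named here after its values were seen. mt-Tl1 had 129 and 133. Their effective lengths are 20 and 26 bases, so the gap between them remains per length, at 37.9 and 65.6 TPM for mt-Tv and 1255 and 1340 TPM for mt-Tl1.

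The most counted tRNA in DMSO replicate 2 was the methionine tRNA mt-Tm, with 52 and 171 expected counts. The serine tRNA mt-Ts1 had 103 and 146, and the glutamine tRNA mt-Tq, on the minus strand, 50.0 and 138. The other 17 had 5 to 53 counts in replicate 1 and 20 to 96 in replicate 2. By name these are mt-Tf, mt-Ti, mt-Tw, mt-Ta, mt-Tn, mt-Tc, mt-Ty, mt-Td, mt-Tk, mt-Tg, mt-Tr, mt-Th, mt-Ts2, mt-Tl2, mt-Te, mt-Tt and mt-Tp. All 22 had more counts in DMSO replicate 2 than in replicate 1, although its total was lower, so the 2 libraries of the group differ for this class beyond their depth.

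Nuclear genes for mitochondrial DNA, RNA and translation and for oxidative phosphorylation were taken from 5 lists for context, beginning from TSA against GSK-343. Of 22 tested genes for transcription and replication of mitochondrial DNA, 1 rose and 2 fell by edgeR (median log2 fold change -0.16, against 0 for all genes, and 0.06 with total count scaling). Without TSA replicate 2 no gene of the 5 lists was called, and under limma on log2(TPM + 1) 11 of the 12 called genes named here lost their call, Ndufs3 being the exception. Ppargc1a, a coactivator that promotes mitochondrial biogenesis, stood at 17.0 ± 0.86 CPM after TSA and 1.05 ± 0.84 CPM after GSK-343 (SD, n = 2 and 3; log2 fold change 3.96 ± 0.78, edgeR adjusted p = 0.00845). In DMSO it was at 13.5 ± 5.41 CPM (n = 2). The neuronal markers named above were also higher in both TSA libraries, and their part in this value was not tested. Polg2, the accessory subunit of the mitochondrial DNA polymerase, was lower after TSA (-1.50 ± 0.40, adjusted p = 0.0299), as was Pprc1, a coactivator related to Ppargc1a (-1.62 ± 0.44, adjusted p = 0.0312). Mean levels of Polg2 were 21.7 CPM after TSA, 61.3 CPM after GSK-343 and 72.7 CPM in DMSO. Those of Pprc1 were 12.5, 38.3 and 50.3 CPM. The helicase gene Twnk was at -1.13 ± 0.50 and was not called.

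Of 28 tested genes for processing and decay of mitochondrial RNA, 2 were lower after TSA and none higher. These were Fastk, an RNA-binding protein of mitochondria that is needed for mt-Nd6 mRNA, at -1.82 ± 0.46 (edgeR adjusted p = 0.0228), and the RNA helicase Supv3l1 at -1.63 ± 0.44 (adjusted p = 0.0298). The log2 fold change of mt-Nd6 in the same comparison was 0.49 ± 0.40. Mean levels of Fastk were 36.9 CPM after TSA, 130 CPM after GSK-343 and 19.0 CPM in DMSO. Those of Supv3l1 were 24.2, 74.9 and 13.7 CPM. Mrm1, a methyltransferase of mitochondrial rRNA, and Angel2 were not called (-1.71 ± 0.68 and -0.97 ± 0.42). Of 83 mitochondrial ribosomal protein genes, 5 were lower and none higher, with a median of -0.83. With total count scaling and by limma on log2(TPM + 1) 1 was called lower, with medians of -0.59 and -0.40. With the replicate block or without GSK-343 replicate 3, 0 were called. At an unadjusted edgeR p under 0.05 stood 13 of 83 and 14 of 82, beside 3140 of 14907 and 3387 of 14581 among all genes. Without TSA replicate 2 the median was -0.80. Among the 5 were Mrpl2 (-1.67 ± 0.44), Mrpl37 (-1.60 ± 0.43), Mrpl54 (-2.39 ± 0.67) and Mrpl53 (-1.74 ± 0.51). In the same order their means were 15.7, 16.1, 5.43 and 11.0 CPM after TSA and 49.8, 48.6, 28.6 and 36.9 CPM after GSK-343. In DMSO they were 4.44, 16.7, 6.09 and 10.5 CPM. The rRNAs that mitochondrial ribosomal proteins bind were not called for TSA against GSK-343, and the rRNA values lay above 0. Of 22 mitochondrial aminoacyl-tRNA synthetase genes and their kin, none was called by edgeR. An unadjusted edgeR p under 0.05 was found for 2 of the 22, beside 4163 of all 14907 genes tested. DESeq2 called 1 higher and 1 lower, and 14.2% of all genes. Those with the smallest p were Nars2 at 1.53 ± 0.48 (adjusted p = 0.0524), Sars2 at -2.73 ± 0.86 (0.0548), Lars2 at 0.71 ± 0.47 and Gatc at -0.79 ± 0.57.

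Of 78 nuclear genes for oxidative phosphorylation subunits, the partners of the mitochondrial mRNAs, 3 were lower after TSA and none higher, with a median of -0.47 (0.01 by limma on TPM + 1). Ndufs3 stood at 14.8 ± 4.38 CPM after TSA and 60.7 ± 13.5 CPM after GSK-343 (log2 fold change -2.03 ± 0.43, edgeR adjusted p = 0.0106), and at 33.0 ± 5.34 CPM in DMSO. Ndufs8, also of complex I, changed by -1.56 ± 0.47 and Cox4i2 of complex IV by -2.05 ± 0.49, and Ndufs7 at -2.58 ± 0.80 was not called (adjusted p = 0.0507). Shares called in the 5 lists ran from 0% to 13.6%, beside 10.7% for all genes. Against DMSO, 16 of the 78 subunit genes were higher after TSA and 15 lower, and 25 were higher after GSK-343 and 12 lower. That is 39.7% and 47.4% of the list called, beside 29.2% and 39.6% of all genes. For transcription and replication of mitochondrial DNA the shares called were 36.4% and 45.5%. The remaining lists lay below all genes, with 14.3% and 28.6% for RNA processing and decay, 18.1% and 36.1% for ribosomal proteins, and 22.7% and 22.7% for synthetases. Among the subunit genes the balance of directions followed the scaling. Total count scaling gave 25 higher and 5 lower for TSA and 37 and 7 for GSK-343. Limma on log2(TPM + 1) gave 37 and 3 for TSA and 42 and 4 for GSK-343. The TSA calls also fell when 1 library was left out, to 12 up and 4 down (TSA replicate 1), 9 and 2 (TSA replicate 2), 8 and 4 (DMSO replicate 1) or 11 and 7 (DMSO replicate 2).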

How the data were processed

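The submitters' processing notes name STAR, RSEM, DESeq2 and the mm10 build; the annotation release is not given in the sources used here. The deposited tables give, per the file headers, expected counts and TPM values for each gene as RSEM estimates them. Expected counts divide reads that fit several genes between them and are not scaled, while TPM values divide by effective length. Lengths and effective lengths are those of the deposited tables. Of 48709 genes, 48349 matched GENCODE M21. Non-whole expected counts made up 11.0% to 13.0% of those above 0 in treated libraries and 50.8% and 45.8% in DMSO.

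Expected counts were rounded and tested with edgeR 4.0.16 in R 4.3.3 (filterByExpr, TMM, robust quasi-likelihood F tests, 1 model of 7 libraries with 4 residual degrees of freedom). Adjustment (Benjamini-Hochberg) ran over all genes tested. TMM factors were 1.32 and 1.16 for TSA, 1.02 to 1.08 for GSK-343, and 0.754 and 0.76 for DMSO. Each SE was obtained by dividing the size of the log2 fold change by √F. The fit was tested on simulated data. Replicates were not duplicates (correlation of log2 CPM 0.904 to 0.952). Nuclear copies were found with BLAST 2.17.0 (E-value at most 1e-05) and, in an alternative added after the tables were seen, their counts were added to the mitochondrial gene. Other alternatives were other scalings, no low-count filter, the 2 groups compared alone, each library left out, a replicate block, DESeq2 1.42.0, limma 3.58.1 on log2(TPM + 1) or log2(TPM + 0.1), and a threshold of 0.01. Python 3.11.15, pandas 2.3.3 and matplotlib 3.10.9 made tables and figures. The members and gene lists were chosen with earlier results of these data known. All members are named except where summed by class, and up to 4 genes of each nuclear list with the smallest p in TSA against GSK-343.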

Additional observations from a re-analysis of the deposited data

How the results depend on the processing

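No named member reversed a call. At a threshold of 0.01 the genes called numbered 317 for TSA against GSK-343, and against DMSO they numbered 2020 for TSA and 3664 for GSK-343. By limma on TPM with pseudocounts of 1 and 0.1, 1007 and 619 were called for TSA against GSK-343 and 7530 and 6876 for TSA against DMSO, against 1598 and 4359 with edgeR. Leaving out 1 library gave 162 to 2111 calls for TSA against GSK-343 (162 without TSA replicate 2, 979 without GSK-343 replicate 2, 827 without GSK-343 replicate 3), and against DMSO 1984 to 5224 for TSA (2575 and 1984 without TSA replicate 1 and 2, 2404 and 2894 without DMSO replicate 1 and 2), 4780 to 6439 for GSK-343. Calls among members under the same omissions were 0 to 1 mRNAs and 0 to 1 rRNAs for TSA against GSK-343, 10 to 12 mRNAs for TSA against DMSO, and 1 to 2 rRNAs for GSK-343 against DMSO. Without the low-count filter 1 rRNA (mt-Rnr2) was called for TSA against GSK-343. Counts of tRNA calls against DMSO (4 by DESeq2 in either comparison, and 8 to 15 for TSA and 14 to 21 for GSK-343 with 1 library left out) are void as tests, because an effective length of 0 fixed every treated count at 0. Limma called 1 rRNA with either pseudocount for GSK-343 against DMSO. The mRNA class held 2.07%, 1.46% and 5.52% of TPM for TSA, GSK-343 and DMSO, and 1.24% and 0.984% of counts for TSA and GSK-343 with the copies added. Per 100 nuclear protein-coding counts the mRNAs came to 1.25, 0.976 and 6.14, and in DMSO the rRNAs to 35.3 and the tRNAs to 0.0326. In DMSO the rRNAs held 26.0% and the tRNAs 1.46% of TPM. Replicate numbers did not pair the samples (correlation of deviations -0.101 to 0.0385). With the replicate block 852 genes were called for TSA against GSK-343, and mt-Atp8 was at 2.22 (edgeR adjusted p = 0.00363). The cause of these shifts was not tested. Short transcripts and 2 or 3 libraries a group limit the precision.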
